A study of Rattus norvegicus with 60 samples.

Results

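DNA replication and S phase genes are described here in the lungs of rats that had inhaled multi-walled carbon nanotubes (MWCNT), which are fibrous carbon particles. The 41 genes were taken by symbol from lists of proteins that license replication origins, build and drive the replication fork, supply deoxynucleotides, copy chromatin or switch cells into S phase. All 41 were among the 30045 rows of the count table, and all 41 were among the 15995 genes that passed the filter on low counts. The rats were male Fischer 344 animals 3 months of age, held 3 to a cage, with no genetic change stated in the labels. Exposed rats breathed MWCNT in a whole-body chamber for 6 hours on each of 3 days, control rats breathed filtered air, and a piece of lung was taken 1 day after the last exposure. For every cumulative dose (11.25, 22.5, 45, 90 and 180 mg/m3) there were 6 MWCNT rats and 6 air rats exposed alongside them. These sets are called 011, 022, 045, 090 and 180, with groups such as MWCNT_180 and air_180. The dose and the set cannot be told apart, since no set held 2 doses. The lung piece was whole tissue. More or fewer cells of a type and more or less RNA per cell therefore cannot be told apart in any value below.

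Of the 60 libraries, 7 carried the submitters' outlier label and were left out, which left 5 against 6 libraries (MWCNT against air) in set 011, 6 against 6 in 022, 6 against 3 in 045, 4 against 6 in 090 and 5 against 6 in 180. Library totals ran from 8.1 to 16.2 in units of 1000000 counts. In set 180 they were lower in exposed rats, at 8.1 to 9.92 in MWCNT_180 and 9.82 to 12.7 in air_180. Lung markers were present in every group, and the summed level of 8 alveolar type 2 markers was 30020 to 32050 CPM (counts scaled to 1000000 per library) in MWCNT_180 and 22910 to 30010 CPM in air_180. In 3 of the left-out libraries, MWCNT_090 replicates 5 and 6 and air_045 replicate 5, between 18% and 20.9% of counts lay in 10 liver genes.

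Before a cell copies its DNA, the origin recognition complex, CDC6 and CDT1 load the MCM2-7 ring onto origins in G1, a step called licensing. At the start of S phase, CDC45 and the GINS complex turn the ring into a moving helicase, and DNA polymerases, the sliding clamp PCNA and its loader RFC then copy both strands. Many of these genes are transcribed as cells leave G1, when cyclin E and CDK2 activity frees E2F factors from the retinoblastoma protein family. In adult lung most cells rest outside the cycle, while progenitor cells of the epithelium and other types divide after injury.

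A total of 33 of the 41 genes was called higher in MWCNT_180 than in air_180, and 0 were called lower. A call here is a Benjamini-Hochberg adjusted p under 0.05 over all 15995 genes in edgeR's two-sided quasi-likelihood test. The same rule called 12.0% of all genes tested higher and 10.9% lower in that set. The median log2 fold change of the 41 genes was 0.70, and the median of all genes tested was -0.01. The changes ran from -0.18 for Pola2 to 2.12 for Cdc6, and 12 genes were more than 2-fold higher. For 30 genes, every MWCNT_180 library lay above every air_180 library, which held for 7.32% of all genes tested.

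The lower doses differed from one another in how many of the 41 genes were called. In set 011, 0 genes were called by edgeR, by DESeq2 or by limma voom, and 2 higher and 1 lower had an unadjusted p under 0.05 in edgeR. The share of all genes called higher in that set was 0.0250%. In set 022, 26 of 41 were called higher, beside 5.18% of all genes. In set 045 the count was 18, beside 3.32%, and in set 090 it was 25, beside 6.82%. No gene of the 41 was called lower in any set, while 1.62% of all genes were in set 022, 2.09% in 045 and 4.28% in 090. Every MWCNT library lay above every air library for 2 of the 41 genes in set 011, 14 in 022, 20 in 045 and 22 in 090, beside 0.444%, 1.96%, 7.53% and 6.69% of all genes. A total of 14 genes was called in all of sets 022, 045, 090 and 180, namely Orc1, Cdc6, Cdt1, Mcm2, Mcm3, Mcm4, Mcm5, Mcm6, Gins1, Fen1, Rrm1, Rrm2, Tk1 and Chaf1a. In set 045, with 3 air libraries, 5 of these calls were lost when 1 library was left out. Without air_045 replicate 4 the adjusted p-values there were 0.25 for Orc1, 0.14 for Mcm4, 0.059 for Gins1, 0.11 for Rrm1 and 0.38 for Chaf1a. Orc1, Mcm4, Rrm1 and Chaf1a were also lost without air_045 replicate 1, at 0.067 to 0.19, and Orc1 or Chaf1a without MWCNT_045 replicate 1, 2, 3, 5 or 6, at 0.058 to 0.11. Set 022 fitted alone gave 0.054 for Cdc6, 0.052 for Cdt1, 0.14 for Mcm4 and 0.055 for Rrm1. Another 6 were called in set 180 alone, and 6 were called in no set, namely Gins4, Rfc3, Pola2, Prim2, Lig1 and Tyms. Rfc2 and Rpa2 were called in set 022 and not in set 180, and the difference between these sets was not tested. The Rfc2 call in set 022 was lost without air_022 replicate 5 or 6 or MWCNT_022 replicate 1, 5 or 6, with adjusted p-values of 0.052 to 0.20, and in limma voom, at 0.12. The Rpa2 call was lost without air_022 replicate 3 or 6 or MWCNT_022 replicate 5 or 6, at 0.05 to 0.11. With set 022 fitted alone the adjusted p was 0.29 for Rfc2 and 0.3 for Rpa2.

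**Figure D1:**
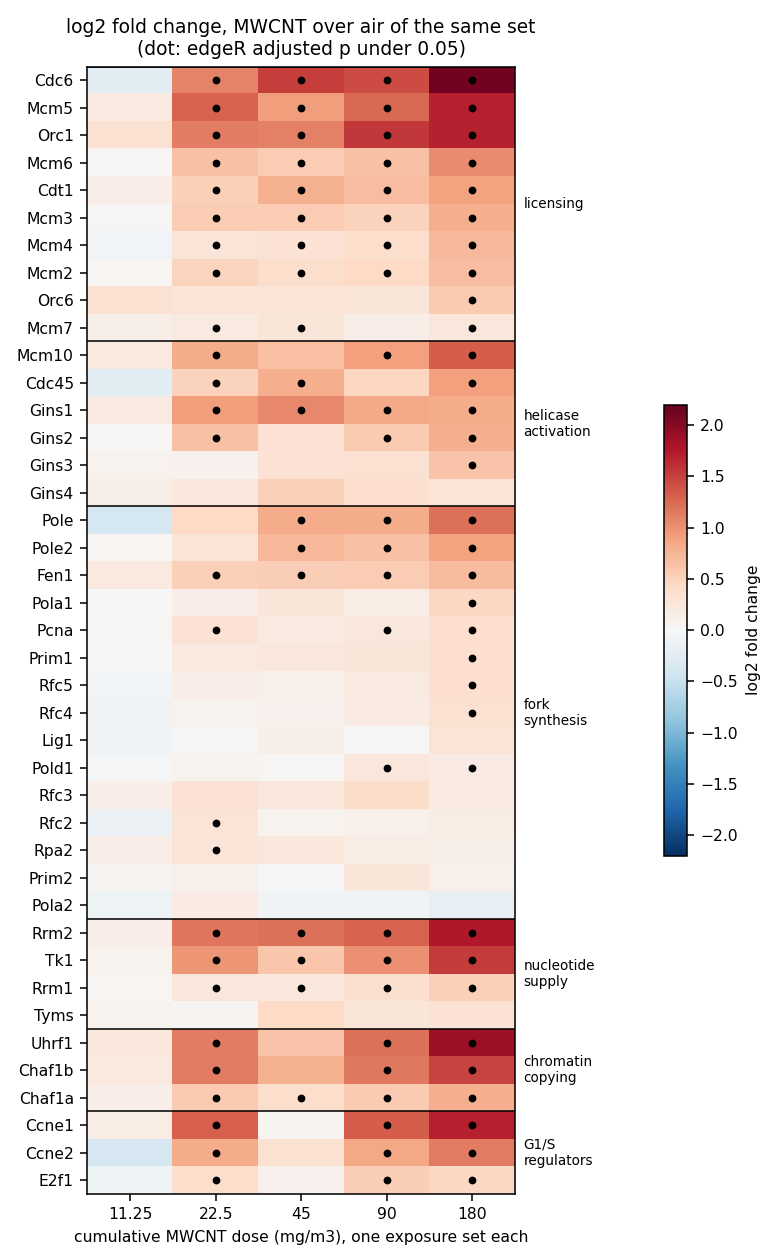
Log2 fold change of MWCNT over air rats of the same set (colour) for the 41 genes, grouped by role, with the cumulative dose in mg/m3 from left to right and a dot where edgeR's adjusted p was under 0.05. The 11.25 mg/m3 column holds 0 dots and the 180 mg/m3 column 33, and fork synthesis genes are the palest group.

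Windows at the gene starts are shown first, because many replication genes are known targets of E2F factors in mammals and the printed genes differ in how far they moved. RefSeq promoters of the rat build GRCr8, 250 bases before and 50 after each annotated start, were found for 34 of the 41 genes in 36 entries. The E2F words searched were TTTCCCGC, TTTGGCGC, TTTCGCGC and TTTGCCGC on both strands, where overlapping matches were each counted. At least 1 word was in 16 of the 36 entries, or 44.4%, in 3.47% of the 12395 entries of genes tested and in 2.14% of all 33469 promoter entries. Among 31 entries of 30 mitosis and cytokinesis genes, 1 held a word, or 3.23%. The 250 bases before the start are printed 5′ to 3′ along the gene's strand for Mcm5, Mcm6 and Mcm7, which code for 3 subunits of the same ring, for Gins1, and for Pola2, which held no word. Capitals mark the E2F words.
Mcm5, chr19:13488563-13488812, plus strand: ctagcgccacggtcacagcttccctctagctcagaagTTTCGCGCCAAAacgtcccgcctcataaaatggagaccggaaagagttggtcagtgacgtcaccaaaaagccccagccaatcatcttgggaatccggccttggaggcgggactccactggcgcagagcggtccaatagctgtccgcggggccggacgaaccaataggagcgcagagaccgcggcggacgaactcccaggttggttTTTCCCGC
Mcm6, chr13:42404353-42404602, minus strand: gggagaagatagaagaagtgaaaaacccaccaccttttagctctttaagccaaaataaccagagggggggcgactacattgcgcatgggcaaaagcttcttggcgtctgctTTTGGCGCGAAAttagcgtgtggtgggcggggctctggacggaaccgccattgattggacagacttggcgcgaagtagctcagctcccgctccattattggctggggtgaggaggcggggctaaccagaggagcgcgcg
Mcm7, chr12:22163179-22163428, minus strand: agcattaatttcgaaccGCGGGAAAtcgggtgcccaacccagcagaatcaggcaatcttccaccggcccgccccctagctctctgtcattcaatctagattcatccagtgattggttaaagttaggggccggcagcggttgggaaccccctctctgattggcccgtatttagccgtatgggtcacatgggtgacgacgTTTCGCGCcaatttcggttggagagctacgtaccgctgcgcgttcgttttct
Gins1, chr3:160184670-160184919, plus strand: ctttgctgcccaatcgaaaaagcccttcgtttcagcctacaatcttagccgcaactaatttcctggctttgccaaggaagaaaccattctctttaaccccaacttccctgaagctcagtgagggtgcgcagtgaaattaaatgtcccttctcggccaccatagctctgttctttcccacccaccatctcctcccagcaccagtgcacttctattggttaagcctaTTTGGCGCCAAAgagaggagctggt
Pola2, chr1:212680543-212680792, minus strand: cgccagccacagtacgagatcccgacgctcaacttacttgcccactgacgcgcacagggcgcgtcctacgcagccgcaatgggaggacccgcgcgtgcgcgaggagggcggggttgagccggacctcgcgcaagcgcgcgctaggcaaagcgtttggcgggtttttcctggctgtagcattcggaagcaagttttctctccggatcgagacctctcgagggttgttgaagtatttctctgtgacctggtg

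In Mcm5 a pair of overlapping words began 213 and 209 bases before the start, and another word began 8 bases before it. Mcm6 had an overlapping pair 139 and 135 bases before the start, and Gins1 had one 25 and 21 bases before it. Mcm7 held words 233 and 52 bases before the start, on opposite strands. In set 180, 12 of the 16 genes with a word were called higher, with a median log2 fold change of 0.74, and 15 of the 18 without one were, with a median of 0.55. Mcm5 with 3 words, Mcm6 with 2 and Mcm7 with 2 had log2 fold changes of 1.71, 1.04 and 0.25. A second search took the letters TTTGAA or TTTAAA on both strands, the core of the CHR element of mitotic promoters, which were in 13.9% of the replication entries, 93.5% of the mitosis entries, 20.4% of the entries of genes tested and 28.3% of all entries. CCAAT was in 61.1%, 64.5%, 36.9% and 37.5% of the same entries. A match describes these letters only, and a window without one says nothing about the factor.

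**Figure D2:**
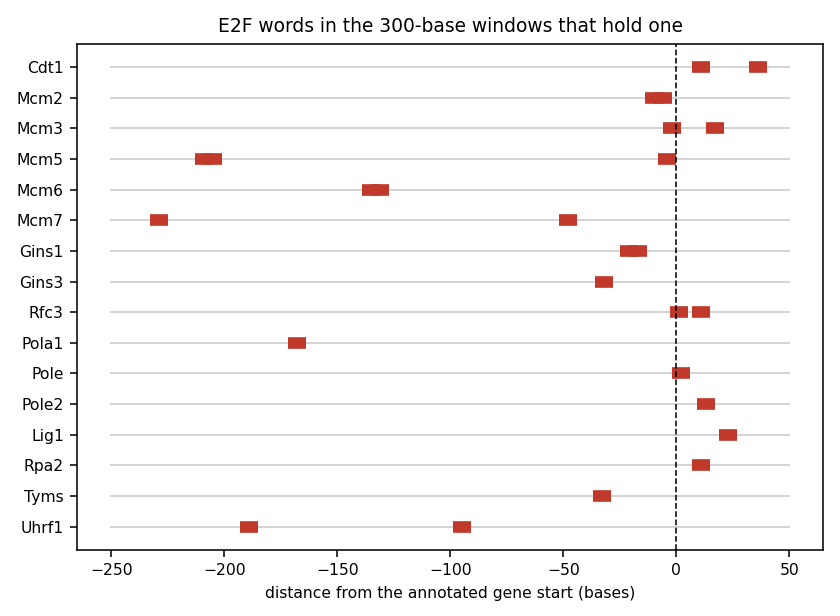
Place of each E2F word (red bar, 8 bases) in the 300-base windows of the 16 entries that held one, as the distance in bases from the annotated gene start (dashed line). Mcm5, Mcm6, Mcm7, Pola1 and Uhrf1 hold words more than 50 bases before the start, and most of the others lie close to it.

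All 10 licensing genes were called higher in MWCNT_180 than in air_180, with a median log2 fold change of 0.84, and 9, 9 and 8 of the 10 were called in sets 022, 045 and 090. Cdc6, the ATPase that helps load the MCM ring, had 4.21, 4.70, 5.39, 5.72 and 5.79 CPM in the 5 MWCNT_180 libraries, against 0.724 to 1.57 CPM with a median of 1.25 CPM in the 6 air_180 libraries. No MWCNT_180 library overlapped the air range. Its log2 fold change was 2.12 ± 0.24 (SE), with an adjusted p of 9.5e-10. In lower sets the Cdc6 mean was 0.981 ± 0.432 CPM in MWCNT_011 (SD, n = 5), against 1.16 ± 0.523 CPM in air_011 (n = 6), and 2.32 ± 0.654 CPM in MWCNT_022, against 1.10 ± 0.427 CPM in air_022 (n = 6 each). It was 2.87 ± 0.394 CPM in MWCNT_045 (n = 6), against 1.0 ± 0.229 CPM in air_045 (n = 3), and 3.27 ± 0.632 CPM in MWCNT_090 (n = 4), against 1.20 ± 0.172 CPM in air_090 (n = 6). The air means stayed within a narrow band across sets, and the difference between MWCNT and air was called from set 022 upwards.

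The 6 subunits of the MCM ring, which act together in equal numbers, were all called higher in set 180 but by unequal amounts. The Mcm5 subunit gene, added here after its values were seen, had 20.7, 22.0, 22.0, 23.5 and 23.5 CPM in MWCNT_180, against 5.79 to 8.41 CPM with a median of 6.64 CPM in air_180. The ranges were far apart, and the log2 fold change was 1.71 ± 0.11 with an adjusted p of 2.1e-17 in edgeR. Mcm6 followed at 1.04 ± 0.07, then Mcm3 at 0.80 ± 0.08, Mcm4 at 0.71 ± 0.07 and Mcm2 at 0.68 ± 0.07. Mcm7 changed least. It had 51.2, 52.7, 53.3, 57.1 and 58.7 CPM in MWCNT_180, against 42.4 to 48.9 CPM with a median of 46.1 CPM in air_180. These ranges did not touch either, and the log2 fold change was 0.25 ± 0.05, with an adjusted p of 0.00029. In set 011 every MWCNT library was also above every air library for Mcm7, at 44.0 to 47.0 CPM in MWCNT_011 against 39.4 to 42.9 CPM in air_011, and its adjusted p there was 1. The Mcm7 air means themselves differed, at 41.5 CPM in air_011 and 42.3 CPM in air_045. They were 46.7, 46.3 and 46.0 CPM in air_022, air_090 and air_180, beside 45.4 CPM in MWCNT_011.

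Among the loaders, Orc1, the largest subunit of the origin recognition complex, rose by a log2 fold change of 1.69 ± 0.27 in set 180, with an adjusted p of 2.5e-06. Orc6 rose by 0.58 ± 0.17, with an adjusted p of 0.0092. The other 4 tested subunit genes of the complex, taken from a list of further licensing genes, were not called: Orc2 had 0.01 ± 0.05, Orc3 0.11 ± 0.10, Orc4 0.13 ± 0.09 and Orc5 -0.03 ± 0.07 as log2 fold change. Cdt1, which brings the ring to the loader, rose by 0.88 ± 0.13, and its inhibitor geminin, Gmnn, by 0.77 ± 0.16. Of the 15 further licensing and firing genes tested, 7 were called higher and 0 lower in set 180. They included Ticrr, which brings firing factors to loaded rings, at 1.72 ± 0.23, the helicase Recql4 at 1.08 ± 0.13 and Wdhd1, which couples the helicase to polymerase alpha, at 0.80 ± 0.12. Dbf4, the activating subunit of the CDC7 kinase, had 0.53 ± 0.44 and was not called, while Cdc7 itself rose by 0.66 ± 0.15.

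**Figure D3:**
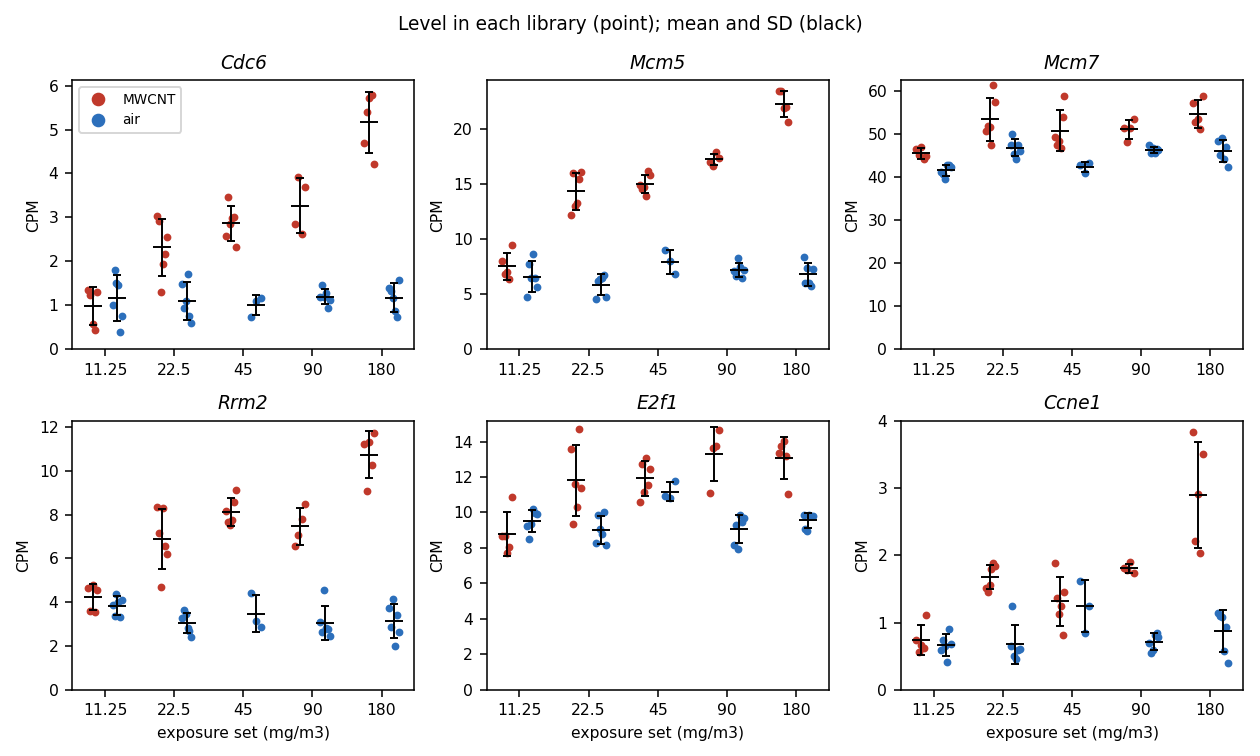
CPM of 6 genes in each library (points) with mean and SD (black), MWCNT in red left of air in blue, by exposure set in mg/m3. MWCNT and air points separate widely for Cdc6, Mcm5 and Rrm2 at 180 mg/m3 and narrowly for Mcm7. For E2f1 the air points at 45 mg/m3 sit higher than in other sets, while for Ccne1 their mean is higher and the points overlap.

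Of the 6 helicase activation genes, 5 were called higher in set 180, and the median log2 fold change of the 6 was 0.81. Mcm10, a scaffold that helps the helicase start, had 3.59, 4.34, 4.71, 5.08 and 5.41 CPM in MWCNT_180, against 1.26 to 2.26 CPM with a median of 1.85 CPM in air_180. The groups did not overlap, and the log2 fold change was 1.33 ± 0.18, with an adjusted p of 1.3e-07. Cdc45 rose by 0.91 ± 0.16. The 4 genes of the GINS complex, whose products form a tetramer, gave different values, with Gins1 at 0.82 ± 0.19, Gins2 at 0.80 ± 0.18, Gins3 at 0.63 ± 0.19 and Gins4 at 0.29 ± 0.15. Gins4 had 4.87, 5.28, 6.45, 6.62 and 6.68 CPM in MWCNT_180, against 3.83 to 6.46 CPM with a median of 4.55 CPM in air_180. Its ranges overlapped, and its adjusted p was 0.18. Without MWCNT_180 replicate 2, the Gins3 adjusted p was 0.061.

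Of the 15 fork synthesis genes, 9 were called higher in set 180, with a median log2 fold change of 0.34. The count was 4 of 15 in set 022, 3 in 045 and 5 in 090, beside 5.18%, 3.32% and 6.82% of all genes called higher. With set 022 fitted alone, the adjusted p was 0.25 for Pcna, 0.29 for Rfc2 and 0.3 for Rpa2. Leaving out 1 library lost Pole or Pole2 in set 045, and Pcna, Pole2 or Pold1 in set 090. Fen1 kept its calls in sets 022, 045 and 090 under every setting run, as did Pole in set 090. Pcna, the sliding clamp that tethers polymerases to DNA, had 80.6, 83.4, 86.4, 87.1 and 96.2 CPM in MWCNT_180, against 62.5 to 71.7 CPM with a median of 66.3 CPM in air_180. The ranges did not overlap, and the log2 fold change was 0.37 ± 0.07, with an adjusted p of 7.5e-05. The clamp loader genes Rfc4 and Rfc5 rose by 0.34 ± 0.12 and 0.36 ± 0.08. Rfc2 had 0.17 ± 0.10 and Rfc3 0.18 ± 0.14, and neither was called. The large subunit gene Rfc1, outside the 41, had -0.05 ± 0.05. The Rfc4 call was lost without air_180 replicate 4, 5 or 6 or MWCNT_180 replicate 2 or 5, with adjusted p-values of 0.053 to 0.13.

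Within each polymerase, some subunits were called in set 180 and others were not, and differences between subunits were not tested. Pole, the catalytic subunit of polymerase epsilon, which copies the leading strand, had 8.78, 9.55, 10.3, 10.9 and 13.6 CPM in MWCNT_180, against 4.21 to 5.31 CPM with a median of 4.58 CPM in air_180. No library overlapped, and the log2 fold change was 1.21 ± 0.15, with an adjusted p of 1.4e-08. Pole2, its second subunit, rose by 0.89 ± 0.18, while the small subunits Pole3 and Pole4 had 0.18 ± 0.08 and -0.11 ± 0.08 and were not called. In polymerase alpha-primase, which lays the primers, Pola1 rose by 0.46 ± 0.09 and Prim1 by 0.37 ± 0.10, and Prim2 had 0.12 ± 0.12. Pola2, the accessory subunit of the same enzyme, had 25.1, 27.1, 30.8, 31.8 and 37.7 CPM in MWCNT_180, against 26.4 to 39.3 CPM with a median of 36.7 CPM in air_180. The groups overlapped over most of their range, and the log2 fold change was -0.18 ± 0.12, with an adjusted p of 0.32. In polymerase delta, the lagging strand enzyme, Pold1 rose by 0.18 ± 0.07 with an adjusted p of 0.037, and its call was lost without air_180 replicate 2, 3 or 6 or MWCNT_180 replicate 2, 4, 5 or 6, with adjusted p-values of 0.055 to 0.094. Pold2, Pold3 and Pold4 had 0.13 ± 0.10, 0.11 ± 0.07 and 0.01 ± 0.09.

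Among the genes that join Okazaki fragments, the flap nuclease Fen1 rose by 0.70 ± 0.10 in set 180, with an adjusted p of 9.7e-08, and was also called in sets 022, 045 and 090. The ligase Lig1 had 0.29 ± 0.14 and was called in no set. Rpa2, a subunit of the single-strand binding protein, had 0.13 ± 0.08, and its partners Rpa1 and Rpa3 had 0.07 ± 0.04 and 0.02 ± 0.13. Of the 21 further fork and clamp genes tested, 6 were called higher and 0 lower in set 180. The largest of them was Top2a, which untangles sister chromosomes in G2 and mitosis, at 1.70 ± 0.12. Dscc1 and Chtf18, subunits of an alternative clamp loader, rose by 1.13 ± 0.21 and 0.71 ± 0.16.

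**Figure D4:**
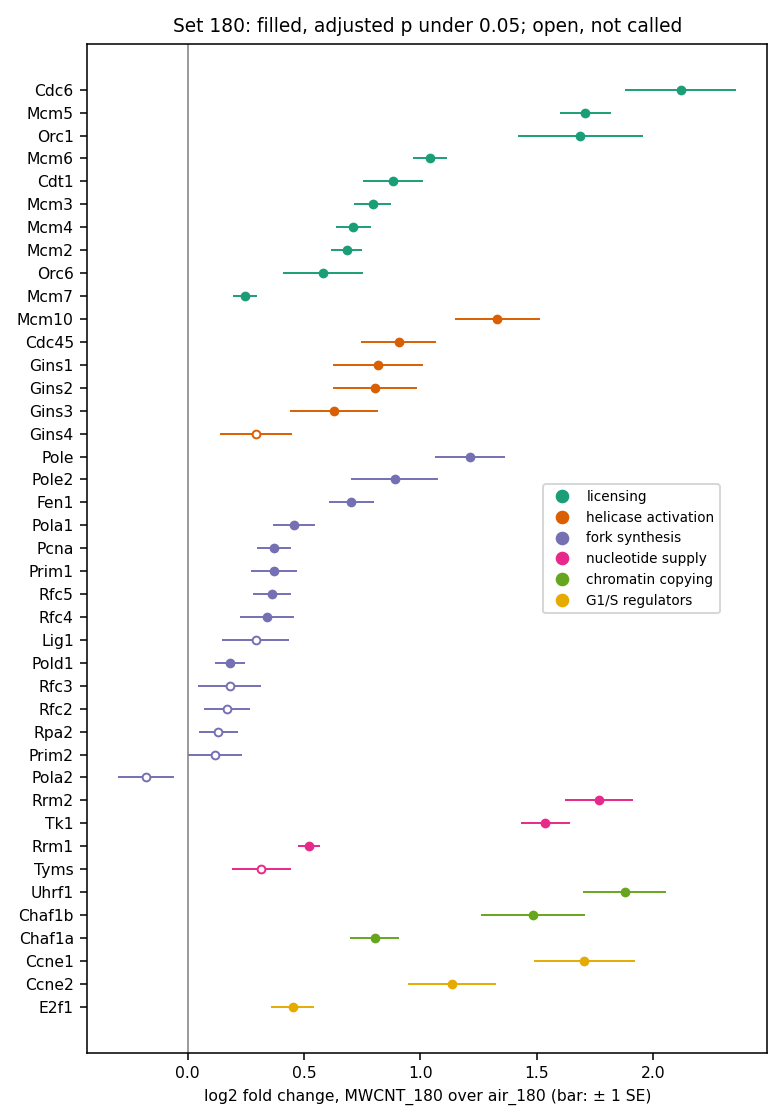
Log2 fold change of MWCNT_180 over air_180 with ± 1 SE for each of the 41 genes, coloured by role and filled where edgeR's adjusted p was under 0.05. Cdc6, Uhrf1, Rrm2, Mcm5 and Ccne1 lie furthest right, 8 genes are open, and Pola2 is the one gene left of 0.

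Among the nucleotide supply genes, Rrm1, Rrm2 and Tk1 were called higher in set 180 and Tyms was not. Rrm2, the small subunit of ribonucleotide reductase that is made in S phase and degraded after it, had 9.10, 10.3, 11.3, 11.3 and 11.7 CPM in MWCNT_180, against 2.01 to 4.13 CPM with a median of 3.15 CPM in air_180. The groups were far apart, and the log2 fold change was 1.77 ± 0.14, with an adjusted p of 9.1e-14. Rrm1, the large subunit of the same enzyme, had 55.8, 57.2, 60.2, 60.7 and 62.8 CPM in MWCNT_180, against 37.8 to 44.0 CPM with a median of 41.7 CPM in air_180. Its ranges were also apart, and its log2 fold change was 0.52 ± 0.05, with an adjusted p of 4.6e-12. Rrm2b, the small subunit used outside S phase, had 11.6 ± 2.60 CPM in MWCNT_180 and 11.9 ± 2.27 CPM in air_180 (SD, n = 5 and 6), a log2 fold change of -0.02 ± 0.17 with an adjusted p of 0.95.

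Tk1, the cytosolic thymidine kinase, was added after its values were seen and had 18.6, 19.3, 20.5, 22.5 and 24.2 CPM in MWCNT_180, against 5.38 to 8.41 CPM with a median of 7.41 CPM in air_180. Its log2 fold change was 1.54 ± 0.11. The mitochondrial kinase gene Tk2 had -0.11 ± 0.07 and was not called. Tyms, which makes thymidylate, had 8.65, 9.73, 10.2, 11.5 and 11.7 CPM in MWCNT_180, against 6.28 to 9.42 CPM with a median of 8.55 CPM in air_180. Its groups overlapped, with a log2 fold change of 0.32 ± 0.13 and an adjusted p of 0.067 in edgeR, while limma voom gave 0.013. Of 10 further nucleotide supply genes, 5 were called higher and 0 lower in set 180, among them the cytidine nucleotide synthase Ctps1 at 0.35 ± 0.05 and the uridylate enzyme Umps at 0.25 ± 0.07. Of 5 nucleotide genes not restricted to S phase, 1 was called higher, the deoxynucleotide hydrolase Samhd1 at 0.39 ± 0.15. The same rule called 12.0% of all genes higher in set 180, so 1 of 5 does not set this list apart.

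All 3 chromatin copying genes rose in set 180. Uhrf1, which brings the maintenance methyltransferase to newly copied DNA, had 11.0, 11.3, 12.4, 15.3 and 15.9 CPM in MWCNT_180, against 2.87 to 4.41 CPM with a median of 3.48 CPM in air_180. No library overlapped, and the log2 fold change was 1.88 ± 0.18, with an adjusted p of 8.5e-12. Chaf1a, the large subunit of the histone chaperone CAF-1, had 15.4, 15.8, 16.6, 18.3 and 18.4 CPM in MWCNT_180, against 7.07 to 11.2 CPM with a median of 9.77 CPM in air_180. Its ranges were apart as well, with a log2 fold change of 0.80 ± 0.10 and an adjusted p of 3.6e-08. The middle subunit gene Chaf1b rose by 1.48 ± 0.22, and the third subunit, Rbbp4, which other complexes share, had -0.09 ± 0.11. Dnmt1, the methyltransferase that UHRF1 recruits, had 0.16 ± 0.07 and an adjusted p of 0.09. Of 9 further chromatin genes tested, 6 were called higher and 0 lower, led by the histone chaperone Asf1b at 1.63 ± 0.19, Atad2 at 0.62 ± 0.09 and the histone mRNA binding protein Slbp at 0.46 ± 0.07. Asf1a, the close relative of Asf1b, had 0.08 ± 0.06 and was not called.

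The 3 regulators of the G1 to S switch were called in sets 022, 090 and 180 and not in set 045. E2f1, an activating E2F factor, had 11.0, 13.2, 13.4, 13.8 and 14.1 CPM in MWCNT_180, against 8.97 to 9.88 CPM with a median of 9.82 CPM in air_180. The groups did not overlap, and the log2 fold change was 0.45 ± 0.09, with an adjusted p of 0.00017. Ccne1, a cyclin E gene, had 2.03, 2.22, 2.91, 3.51 and 3.83 CPM in MWCNT_180, against 0.392 to 1.14 CPM with a median of 1.0 CPM in air_180. Its ranges were apart, with a log2 fold change of 1.70 ± 0.22 and an adjusted p of 2.4e-08. Ccne2, the other cyclin E gene, rose by 1.14 ± 0.19. In set 045, Ccne1 averaged 1.32 ± 0.359 CPM in MWCNT_045 (SD, n = 6) and 1.24 ± 0.388 CPM in air_045 (n = 3), and E2f1 averaged 11.9 ± 0.976 CPM in MWCNT_045 and 11.2 ± 0.530 CPM in air_045. Ccne2 averaged 3.78 ± 0.335 CPM in MWCNT_045 and 3.0 ± 0.227 CPM in air_045. In the other 4 air groups, the means were 0.666 to 0.868 CPM for Ccne1, 9.03 to 9.57 CPM for E2f1 and 1.93 to 2.39 CPM for Ccne2. With all air libraries as a single control, edgeR's adjusted p in set 045 was 0.00036 for E2f1, 0.0028 for Ccne1 and 5.9e-05 for Ccne2. With set 022 fitted alone, the E2f1 adjusted p there was 0.12. Among the 5 air groups none of these 3 genes was called, while Mcm7 and Tk1 were, each with an adjusted p of 0.048, beside 7.11% of all genes. Between 0 and 3 of the 41 were called in that comparison when any 1 library was left out, with 0 without air_045 replicate 1, 2 or 4.

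Of 22 further G1 to S genes tested, 10 were called higher and 0 lower in set 180. The atypical repressors E2f7 and E2f8, which are themselves made in S phase and restrain E2F targets, rose by 2.17 ± 0.24 and 1.72 ± 0.22, and the S phase cyclin Ccna2 rose by 1.83 ± 0.13. The early G1 cyclins Ccnd1, Ccnd2 and Ccnd3 had -0.08 ± 0.07, 0.12 ± 0.16 and -0.13 ± 0.07, and none of them was called. Rb1, the retinoblastoma gene, had -0.02 ± 0.07, and its relative Rbl1 rose by 0.66 ± 0.17. Of 5 inhibitor genes of cyclin-dependent kinases tested, Cdkn1c and Cdkn1b fell, by 0.57 ± 0.13 and 0.23 ± 0.05 on the log2 scale. Cdkn1a, the p21 gene induced by p53, had 47.8 ± 11.0 CPM in MWCNT_180 and 57.3 ± 19.1 CPM in air_180 (SD, n = 5 and 6), and was not called, with an adjusted p of 0.37.

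Changes in set 180 are set beside air_180 levels here as a description. Of the 17 genes under 5 CPM in air_180, 9 were more than 2-fold higher in MWCNT_180 and the median log2 fold change was 1.14. Of the 24 genes at 5 CPM or more, 3 were more than 2-fold higher and the median was 0.37. Spearman's rho between the air_180 mean CPM and the log2 fold change was -0.63 over the 41 genes, which share the same libraries. The air_180 level is also the denominator of the fold change, which by itself favours a negative rho, and CPM is not divided by gene length. The 41 genes together took 0.0683% to 0.0731% of the counts in MWCNT_180 libraries and 0.0448% to 0.052% in air_180 libraries.

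Within each library, the median log2 ratio of the 41 genes to the mean of the same set's air rats gave a compact view over doses. It was -0.0095 to 0.0942 in MWCNT_011 and -0.0402 to 0.0346 in air_011, 0.296 to 0.567 in MWCNT_022 and -0.16 to 0.126 in air_022, and 0.258 to 0.474 in MWCNT_045 and -0.0539 to 0.0225 in air_045. It was 0.35 to 0.532 in MWCNT_090 and -0.0522 to 0.0689 in air_090, and 0.609 to 0.713 in MWCNT_180 and -0.106 to 0.163 in air_180. The groups overlapped in set 011 and did not overlap in the other 4 sets. The same median over 35 mitosis and cytokinesis genes was 1.27 to 1.46 in MWCNT_180 and -0.212 to 0.156 in air_180. In that list, 34 of 35 genes were called higher in set 180, with a median log2 fold change of 1.42, led by Melk at 2.1 ± 0.16, Ect2 at 2.09 ± 0.15 and the mitotic cyclin Ccnb1 at 2.07 ± 0.16, and Mki67, the antigen of cycling cells, had 1.66 ± 0.10. The median over the mitosis genes was 0.16, 1.19, 0.94, 1.10 and 1.42 from set 011 to set 180, and over the 41 replication genes it was 0.05, 0.39, 0.33, 0.48 and 0.70. The difference between the lists was not tested.

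**Figure D5:**
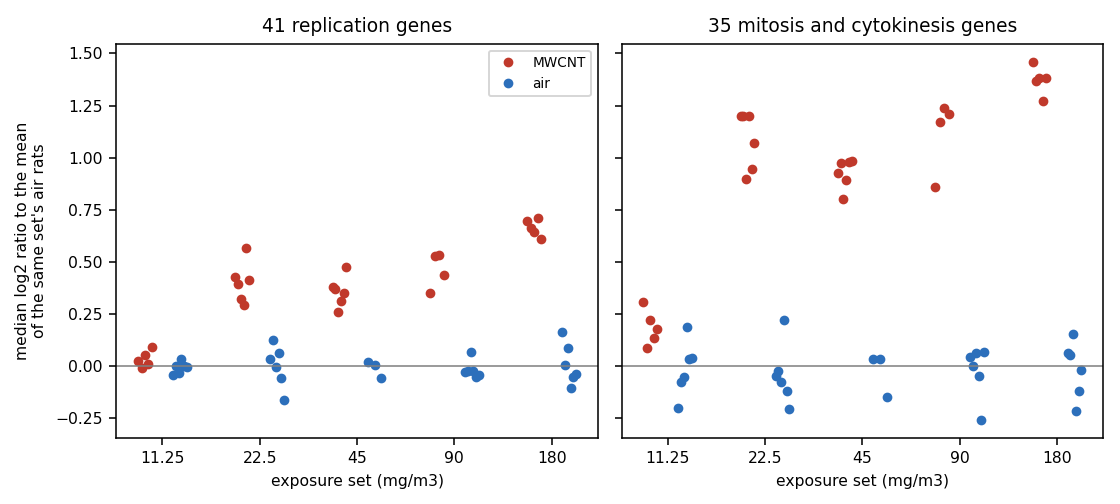
Median log2 ratio to the mean of the same set's air rats in each library, for the 41 replication genes (left) and 35 mitosis and cytokinesis genes (right), MWCNT in red left of air in blue, by exposure set in mg/m3. In both panels, MWCNT points overlap air points at 11.25 mg/m3 and lie above them from 22.5 mg/m3 upwards.

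The effect differed between sets for some genes. Between sets 022 and 011, the MWCNT effect was larger in set 022 for 8 of 41 genes, beside 0.700% of all genes, namely Mcm2, Mcm3, Mcm5, Mcm6, Rrm2, Tk1, E2f1 and Ccne2. For Mcm5 the difference of the log2 fold changes was 1.10 ± 0.16, with an adjusted p of 5.2e-05 in edgeR. Between sets 045 and 022, 090 and 045, and 180 and 090, 0 of 41 genes were called by edgeR, by DESeq2 or by limma voom. Over all 15995 genes edgeR called 0 in each of these steps, DESeq2 0, 1 and 0, and limma voom 1, 9 and 2. With an unadjusted p under 0.05 in edgeR these steps gave 4 lower, 6 higher and 10 higher genes of the 41, beside 421 lower, 430 higher and 461 higher of all genes. The log2 fold change was larger in set 180 than in set 090 for 33 of the 41 genes, and 30 had their largest value in set 180. A straight line of the effect over the log2 of dose was called for 25 genes, all upward, beside 5.58% of all genes, and Cdc6 had the steepest line at 0.51 ± 0.08 per doubling of dose. Any difference among the 5 sets was called for 16 genes, beside 4.92% of all genes. Each p-value measures the spread between rats within sets, and a difference between sets holds the dose and everything else that differed between them.

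Several settings moved these counts. In set 045, which had 3 air libraries, the count was 11 in place of 18 without air_045 replicate 4, and 33 when all air libraries served as a single control. In set 022 it was 14 in place of 26 when that set was fitted alone.

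Markers of other cell types differed between MWCNT_180 and air_180 at the same time, and their part in the results above was not tested. The counts of called markers stand beside 12.0% of all genes called higher in set 180 and 10.9% called lower. Of 8 neutrophil markers, 7 were called higher, with a summed level of 273 to 360 CPM in MWCNT_180 and 143 to 231 CPM in air_180, and Il1r2 and S100a9 had log2 fold changes of 2.0 ± 0.20 and 1.06 ± 0.16. Of 8 monocyte and dendritic cell markers tested, 6 were called higher, with 558 to 677 CPM in MWCNT_180 and 463 to 518 CPM in air_180. Cd209a had 0 counts in total in MWCNT_180 and 2 in air_180, so its row was near empty in both groups. Of 10 macrophage markers tested, 5 were called higher and 2 lower, with 669 to 724 CPM in MWCNT_180 and 482 to 753 CPM in air_180. Marco had 3 counts in total in MWCNT_180 and 0 in air_180, so its row was near empty in both groups. Of 8 alveolar type 2 markers, 3 were called higher, with the surfactant protein genes Sftpa1 and Sftpd at 0.61 ± 0.10 and 0.55 ± 0.10. The surfactant gene Sftpb alone of that list had a lower mean in MWCNT_180, at 3267 CPM against 3613 CPM in air_180.

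Of 8 multiciliated cell markers tested, 6 were called higher, with 173 to 220 CPM in MWCNT_180 and 92.47 to 156.7 CPM in air_180. Ccno, a cyclin-like protein of cells that multiply centrioles without dividing, had a log2 fold change of 3.17 ± 0.14 in set 180 and 1.52 ± 0.16 in set 011, and was called in both. Of the 41 replication genes, 0 were called in set 011, where 0.0250% of all genes were called higher and 0% lower, so few calls were to be had. Endothelial markers were called lower in 6 of 9 cases, and all 9 had a lower mean in MWCNT_180. Their sums were 3755 to 4105 CPM in MWCNT_180 and 4399 to 4860 CPM in air_180. Alveolar type 1 markers were called lower in 3 of 8, at 6851 to 6966 CPM in MWCNT_180 and 7872 to 8574 CPM in air_180. Club cell markers were called lower in 2 of 6, at 3347 to 4246 CPM in MWCNT_180 and 4903 to 7725 CPM in air_180. These sums are mostly Scgb1a1, with a mean of 3505 CPM in MWCNT_180 and 5982 CPM in air_180. The mucin gene Muc5b of the same list averaged 41.1 ± 25.1 CPM in MWCNT_180 (SD, n = 5) and 13.7 ± 11.5 CPM in air_180 (SD, n = 6), and edgeR did not call it, with an adjusted p of 0.075.

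Lymphoid and red cell precursor markers gave lower or uncalled values. Of 12 T and NK cell markers, 3 were called lower and 0 higher, at 271 to 355 CPM in MWCNT_180 and 297 to 430 CPM in air_180. None of 7 B and plasma cell markers, 4 thymus and lymph node markers and 7 red cell precursor markers tested was called by edgeR. With an unadjusted p under 0.05 there were 0, 0 and 4 of them, all 4 lower. DESeq2 called 0 in each list, and limma voom called 0, 1 and 4, all lower. The B and plasma cell sums were 33.3 to 42.3 CPM in MWCNT_180 and 22.9 to 50.3 CPM in air_180. The thymus and lymph node sums were 129 to 209 CPM in MWCNT_180 and 152 to 224 CPM in air_180. Rag1 had 0 counts in total in MWCNT_180 and 8 in air_180, and Rag2 had 0 in both. The red cell precursor sums were 2047 to 3261 CPM in MWCNT_180 and 2906 to 4153 CPM in air_180. Of the lists that could mark other tissue in the lung piece, fibroblast and smooth muscle markers were called lower in 1 of 8 cases. Mesothelium markers were called in 0 of 5 by edgeR, DESeq2 and limma voom and had 0 with an unadjusted p under 0.05. The liver list was called higher in 1 of 10 (Hp), and the heart and skeletal muscle list in 1 of 7 (Acta1). These counts are near the share of all genes, 12.0% called higher and 10.9% called lower. Their summed levels were 3464 to 3746, 332 to 487, 116 to 239 and 28.5 to 115 CPM in MWCNT_180, and 3451 to 3793, 371 to 538, 72 to 285 and 18.1 to 278 CPM in air_180, and Col1a2 had 0 counts in air_180 and Myl2 0 in MWCNT_180.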

How the data were processed

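Lung RNA of 60 rats was sequenced from stranded mRNA libraries with 12 cycles of PCR, per the labels' protocols. The submitters deposited unnormalized counts, 1 row per gene symbol. The submitters' processing notes name bcl2fastq 2.19, Trimmomatic 0.35, HISAT2 2.1.0, Cufflinks, SAMtools 1.8 and HTSeq 0.11.2, while a genome build is not given in the sources used here. A spreadsheet date replaced the symbol in 27 rows, none of them a gene reported here. The 7 libraries that the labels mark as outliers were left out.

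In R 4.3.3, filterByExpr with a minimum count of 10 kept 15995 genes, TMM scaled the libraries, and a single robust quasi-likelihood model (edgeR 4.0.16) with the 10 groups gave every contrast, with Benjamini-Hochberg adjustment over all genes tested. SE is the log2 fold change divided by the square root of F, and CPM is per TMM-scaled library. Library ratios used log2(CPM + 0.1). The procedure was tested on simulated data. Libraries of a group were checked for duplicates in pairs and none was found, with a smallest chi-square per degree of freedom of 2.59. The libraries held 8.1 to 16.2 in units of 1000000 counts, with no molecular identifiers, and a gene's lowest count in any library ranged from 3 for Orc1 to 555 for Pcna.

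The 41 genes and all lists were chosen with earlier results of these data known. Library values are given for the largest change, the smallest change and the highest level of each role group, and lists are named by their 3 largest called changes, with Mki67, Cdkn1a and Rrm2b always. A gene that this rule names is not reported here. Mcm5, Tk1, the other subunits of named complexes and the further relatives named beside them were chosen after their values were seen. Promoters come from RefSeq (GRCr8). Alternatives were all 60 libraries, 57 libraries (a liver share of at most 1%), DESeq2 size factors, no filter, DESeq2 1.42.0, quality-weighted limma voom 3.58.1, a filter of over 1 CPM in at least 10 libraries, each set alone, all air as a single control, a linear dose and each library left out.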

Additional observations from a re-analysis of the deposited data

Results flagged for a closer look

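The effect of MWCNT differed between sets 022 and 011 in edgeR's test of the difference for 8 genes. The log2 difference of the effects (022 minus 011) was 0.441 for Mcm2, 0.519 for Mcm3, 1.10 for Mcm5 and 0.62 for Mcm6, the ring subunits, and 1.04 for Rrm2, 0.882 for Tk1, 0.503 for E2f1 and 1.18 for Ccne2. A difference among all 5 sets was called for 16 genes. The adjusted p was 0.00034 for Cdc6, 9.6e-05 for Mcm2, 0.00014 for Mcm3, 3.6e-05 for Mcm4, 7.2e-08 for Mcm5 and 1.6e-07 for Mcm6 among licensing genes. It was 0.012 for Cdc45, 1.4e-05 for Pole, 5e-05 for Rrm1, 8.9e-06 for Rrm2 and 1.5e-07 for Tk1. It was 0.039 for Chaf1a, 0.00023 for Uhrf1, 0.002 for E2f1, 0.00089 for Ccne1 and 0.0019 for Ccne2. Dose and set cannot be told apart in these differences.

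Single libraries stood apart from their group in 8 of 135 sets of values examined, where chance gives about 1 in 20. Of these, 3 were in air_090 replicate 3 or in its median, with Rrm2 at 4.56 CPM beside 2.44 to 3.09 CPM in the other air_090 libraries, Chaf1a at 12.8 CPM beside 8.91 to 9.68 CPM, and a median log2 ratio of the 41 genes of 0.0689 beside -0.0522 to -0.0228. E2f1 was 11 CPM in MWCNT_180 replicate 6, beside 13.2 to 14.1 CPM in the others. Pole was 5.31 CPM in air_180 replicate 1, beside 4.21 to 4.61 CPM, and Tyms was 6.28 CPM in air_180 replicate 3, beside 8.28 to 9.42 CPM. Pcna was 63.4 CPM in air_011 replicate 3, beside 58.8 to 60.5 CPM, and Ccne1 was 1.24 CPM in air_022 replicate 2, beside 0.453 to 0.656 CPM.

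MWCNT_180 replicate 1 carried the outlier label and entered only the alternatives with 57 or 60 libraries. Its median log2 ratio of the 41 genes was 0.718, beside -0.106 to 0.163 in air_180.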

How the results depend on the processing

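With all 60 libraries, which adds 3 with a liver profile, the number of genes called was 15 in set 090, 9 in set 045, 8 in set 022, 0 for set 022 against 011, 4 for set 090 against 045, 5 for the slope over doses and 9 for any difference among sets, and the median log2 fold change in set 090 was 0.321. Set 045 gave 33 with all air libraries as a single control, and 11 to 17 with 1 library left out. Set 022 fitted alone gave 14. Among the air groups, DESeq2 size factors, no filter and the stricter filter each gave 0, limma voom gave 6 beside 3669 of all 15995 genes, and leaving out 1 library gave 0 to 3. The median in set 180 was 0.655 to 0.727 with 1 library left out, and the median in set 011 was -0.0021 with all air libraries as a single control. The cause of these changes was not tested. In set 180 the count was 22 with all 60 libraries and 31 to 35 under the other settings, and 22 of its 33 genes kept their call under every setting run. The corresponding counts were 11 of 25 in set 090, 8 of 18 in set 045 and 8 of 26 in set 022, and no called gene changed direction in any setting. The labels give no replicate numbers that groups share, so no paired analysis was possible because the numbers used here only follow the order of deposit. Orc1 had a median of 9 counts per library and Pcna 786, and their SEs in set 180 were 0.27 and 0.07.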

Other observations

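The other outlier-labelled libraries, which entered only the alternatives with 57 or 60 libraries, had these median log2 ratios of the 41 genes to the mean of their set's air rats. The ratio was 0.124 in air_045 replicate 3, -0.545 in air_045 replicate 5 and 0.057 in air_045 replicate 6. It was -0.431 and -0.41 in MWCNT_090 replicates 5 and 6, and -0.0163 in MWCNT_011 replicate 2. Liver genes took 18%, 20.4% and 20.9% of the counts in air_045 replicate 5 and MWCNT_090 replicates 5 and 6.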
